A study of Mus musculus with 2 samples.

Results

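The genes described here are 37 mouse genes known as type I interferon response genes, found by their symbols among the 33696 genes listed for subcutaneous CT26 tumors. The 37 genes were chosen by their known role and by UMI levels that earlier work on the same counts had shown across these cell types and between the groups, so their levels and the differences between the libraries are given as a description, with no test. The tumors grew from CT26, a colon carcinoma line of the mouse, under the skin of male BALB/c hosts. Tumors of the first group were left untreated (UT), and tumors of the second received bupivacaine (BUP), a local anesthetic, in a hydrogel placed at the tumor (BUP-Gel); no tumor with an empty gel was sequenced, so the drug and the gel cannot be told apart. Each group gave 1 library, pooled from 3 mice, in which live CD45+ and CD45- cells had been sorted and then mixed, so that the numbers of immune and tumor cells follow the mixing as well as the tissue. With 1 library in each group there is no replicate, and every interval below covers counting error only.

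The UT library held 83228442 unique molecular identifiers (UMIs, each standing for 1 captured RNA molecule) in 7556 barcodes, of which 7163 were kept as cells, and the BUP library 89918925 UMIs in 7221 barcodes, of which 6776 were kept. The median cell had 8430 UMIs in UT and 10420 in BUP-treated tumors, and 76 barcodes occurred in both libraries. Cells were clustered without the interferon genes and named from marker genes. The 6 lineages used were neutrophils (615 UT and 425 BUP cells), monocytes and macrophages (3053 and 1568), dendritic cells (174 and 174), T cells (624 and 867), NK cells (469 and 334) and tumor cells (1129 and 2434). Neutrophils are small in RNA, with medians of 1870 and 2127 UMIs, and all 8 neutrophil markers, among them *S100a8*, *S100a9* and *Retnlg*, were detected in them. Tumor cells had almost no *Ptprc*, the gene of CD45, at 26.1 and 20.3 CPM (UMIs of a gene for every 1000000 UMIs of the lineage), against 491 to 1434 CPM in the other lineages, and 4 genes carried by cells of the male host were summed to 5.74 and 5.08 CPM in them.

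Type I interferons, interferon beta and the interferon alphas, are secreted by cells that sense foreign or misplaced nucleic acid. They bind the receptor made of IFNAR1 and IFNAR2, whose kinases JAK1 and TYK2 switch on transcription factors, among them STAT2. STAT2 and IRF9 are parts of the complex ISGF3, which binds an interferon-stimulated response element (ISRE) in the promoters of responding genes. Many of those genes also answer to interferon gamma, and several are induced directly by interferon regulatory factors, so a raised level does not by itself name the ligand. In tumors, type I interferon is known for its part in the priming of T cells by dendritic cells, and in neutrophils for changing their maturation and survival.

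The promoters of these genes carry the letters of the ISRE far more often than promoters in general. A 10-letter core, GAAA followed by any 2 bases and GAAA again, was searched on both strands in the 200 bases before the canonical start of each gene on GRCm39. It occurred before 16 of the 37 genes (43.2%), against 532 of 21770 protein-coding genes (2.44%), and 8 of the 37 held it at least 2 times, against 41 of all. A match is a run of letters and not a bound site. The stretches below, of 60 bases each and written 5′ to 3′ on the strand of the gene, are shown because they lie before the genes with large, middling and small differences in neutrophils; capitals mark the matched letters, which read TTTC, 2 bases and TTTC where the match lies on the other strand.
*Ifit1* (chr19:34618179-34618238, plus strand): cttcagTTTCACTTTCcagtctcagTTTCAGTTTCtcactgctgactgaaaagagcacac
*Ifit3* (chr19:34560782-34560841, plus strand): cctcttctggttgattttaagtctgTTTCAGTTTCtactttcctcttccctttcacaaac
*Ifit3b* (chr19:34585178-34585237, plus strand): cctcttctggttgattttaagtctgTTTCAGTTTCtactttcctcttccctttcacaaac
*Usp18* (chr6:121222781-121222840, plus strand): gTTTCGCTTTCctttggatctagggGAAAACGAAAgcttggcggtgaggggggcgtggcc
*Rsad2* (chr12:26506537-26506596, minus strand): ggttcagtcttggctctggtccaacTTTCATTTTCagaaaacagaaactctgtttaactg
*Bst2* (chr8:71990206-71990265, minus strand): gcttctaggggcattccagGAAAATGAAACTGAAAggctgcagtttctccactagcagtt
*Zbp1* (chr2:173060727-173060786, minus strand): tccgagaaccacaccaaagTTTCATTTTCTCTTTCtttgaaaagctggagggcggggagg
*Isg15* (chr4:156285307-156285366, minus strand): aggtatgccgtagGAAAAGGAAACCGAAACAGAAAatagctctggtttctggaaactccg
The stretches of *Ifit3* and *Ifit3b* are the same letter for letter. These genes are near copies of each other, as are *Oas1a* and *Oas1g*, *Phf11b* and *Phf11d*, members of the Schlafen family and relatives of *Ifi204*, so the division of UMIs between such copies is uncertain.

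As a share of the RNA of a lineage, these genes were highest in neutrophils, and the share ran over a wide range between lineages. In number of UMIs they were not, as UT neutrophils held 11207 UMIs of these genes. UT monocytes and macrophages held 120885 and UT tumor cells 38813. In the UT library the 37 genes summed to 8596 CPM in neutrophils (95% Poisson interval 8437 to 8756), 3561 in monocytes and macrophages, 2954 in dendritic cells, 1460 in T cells, 1400 in tumor cells and 1164 in NK cells. In the BUP library the order was neutrophils at 5863, monocytes and macrophages at 3389, dendritic cells at 2704, tumor cells at 1398, T cells at 1235 and NK cells at 1183 CPM. T cells and tumor cells changed places between the libraries, and T and NK cells of the BUP library could not be ordered beyond their counting error. Each captured molecule counts once whatever the length of its gene, so the sums weigh genes by molecules.

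Among the 6 lineages, with both libraries added together, 20 of the 37 genes were highest in neutrophils, 11 in monocytes and macrophages and 6 in dendritic cells. Classes outside the 6 lineages were left out of this ranking, and *Isg20* was higher in erythroid-like cells than in neutrophils, as given at the end. The genes highest in neutrophils among these lineages were the 4 IFIT genes, whose proteins bind viral RNA, *Isg15*, *Usp18*, *Rsad2*, *Cmpk2*, *Oas2*, *Oas3*, *Oasl1*, *Ifih1*, *Isg20*, *Herc6*, *Rtp4*, *Trim30a*, *Parp14*, *Slfn1*, *Slfn4* and *Slfn8*. *Dhx58*, *Zbp1*, *Ifi204*, *Ifi27l2a*, *Ifi44*, *Mx2*, *Oas1a*, *Oasl2*, *Phf11d*, *Slfn5* and *Xaf1* were highest in monocytes and macrophages. Dendritic cells led for *Bst2*, *Irf7*, *Ifi35*, *Stat2*, *Mx1* and *Phf11b*. Taken by library, 26 genes were highest in the same lineage in both, and the numbers for neutrophils, macrophages and dendritic cells were 24, 7 and 6 in UT and 15, 14 and 6 in BUP. Of the 11 others, *Ifih1*, *Ifit2*, *Ifit3*, *Oasl2*, *Parp14*, *Slfn5* and *Xaf1* were highest in neutrophils in UT and in macrophages in BUP. *Irf7* was highest in neutrophils in UT (292 CPM, against 212 in dendritic cells) and in dendritic cells in BUP (292 CPM, against 204 in neutrophils). *Usp18* went from neutrophils to NK cells, *Mx2* from dendritic cells to macrophages and *Phf11d* from macrophages to tumor cells. Some genes marked a lineage sharply, as *Slfn4*, a Schlafen gene of myeloid cells, stood at 1150 CPM in UT neutrophils and 4.80 CPM in UT tumor cells. Others were spread, as *Bst2*, whose protein tetherin holds budding virus at the membrane, stood at 649 CPM in UT dendritic cells, 436 in tumor cells and 117 in neutrophils.

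**Figure D1:**
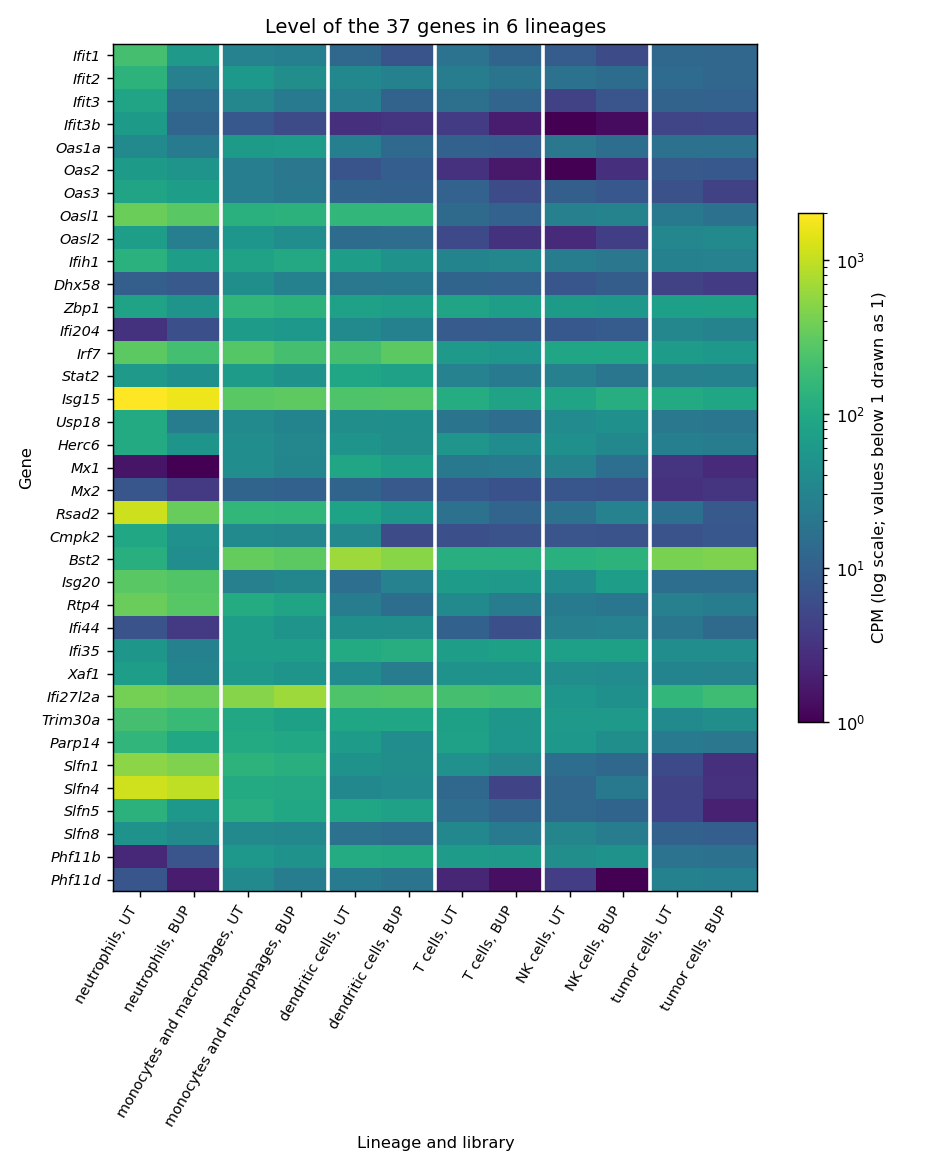
Level of each of the 37 genes (rows) in 6 lineages of the UT and BUP libraries (columns), as CPM on a logarithmic color scale. The neutrophil columns hold the brightest cells, with *Isg15* at 1953 and 1645 CPM and *Rsad2* at 1127 and 344 CPM, while the NK and tumor columns are dark for most genes, with *Bst2* and *Isg15* among the exceptions.

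In neutrophils, each of the 30 genes that reached 50 UMIs with the libraries added together was lower in the BUP library, and 18 of them were lower by at least 0.5 on the log2 scale; none was higher by that amount. Among all 3886 genes with that many UMIs in neutrophils, 17.5% were lower and 3.81% higher by that amount; the genes were chosen with this contrast in view, so nothing is read from the comparison. The median log2 ratio of BUP over UT was -0.69 for the 30 genes and -0.09 for all 3886. With a minimum of 200 UMIs it was -0.37 for the 15 genes left and -0.0024 for all 1476. The summed level of the 37 genes had a log2 ratio of -0.55 (95% interval -0.60 to -0.51). *Dhx58*, *Ifi204*, *Mx1*, *Mx2*, *Ifi44*, *Phf11b* and *Phf11d* had under 50 UMIs in these cells and are left out of the counts. Because RNA was divided by the total of each lineage, a smaller share of cells with the program and less of it per cell look alike in these sums; the values per cell are given further on.

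As a group, the IFIT genes had the lowest median log2 ratio in neutrophils (-2.33). *Ifit1*, which encodes a protein that binds RNA lacking the cap marks of the host, stood at 212 CPM (188 to 239) in UT and 60.8 CPM (47.0 to 77.3) in BUP neutrophils, a log2 ratio of -1.81 (-2.22 to -1.41). *Ifit2*, a partner of *Ifit1* in the same complexes, stood at 135 and 27.6 CPM, with a log2 ratio of -2.29 (-2.90 to -1.72). *Ifit3* stood at 84.4 and 15.7 CPM (-2.43) and its near copy *Ifit3b* at 62.1 and 12.0 CPM (-2.38). All 4 lay below their UT level with no overlap of the counting intervals, and their sum was 494 CPM in UT and 116 CPM in BUP neutrophils. The promoter stretches of *Ifit1*, *Ifit3* and *Ifit3b* printed above hold the ISRE core, while *Ifit2* held no match in its 200 bases.

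*Rsad2*, which encodes viperin, an enzyme that makes a chain-terminating nucleotide, had the largest difference in absolute level, at 1127 CPM (1071 to 1187) in UT and 344 CPM (310 to 380) in BUP neutrophils, a log2 ratio of -1.71 (-1.88 to -1.55). *Cmpk2*, its neighbor in the genome and a kinase that supplies viperin with its substrate, stood at 92.8 and 47.0 CPM (-0.98). Both genes were lower in the BUP library, *Rsad2* by more.

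Of the ISG15 system, the enzymes differed more than the modifier itself. *Usp18*, a protease that removes ISG15 from proteins and also damps signaling at IFNAR2, stood at 104 and 24.9 CPM, with a log2 ratio of -2.06 (-2.71 to -1.45). *Herc6*, the mouse ligase that attaches ISG15, stood at 104 and 50.7 CPM (-1.03). *Isg15*, the ubiquitin-like modifier and the most abundant of the 37 genes in neutrophils, stood at 1953 and 1645 CPM, with a log2 ratio of -0.25 (-0.34 to -0.16). *Isg15* was thus past counting error but within the 0.5 limit, although its promoter stretch holds the ISRE core at more than 1 place.

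Members of other families were lower by at least 0.5 too. *Bst2* stood at 117 and 41.4 CPM (-1.50), and *Xaf1*, which encodes a factor that antagonizes inhibitors of apoptosis, at 68.3 and 31.3 CPM (-1.12). *Oasl2* (-1.42) and *Oas1a* (-0.71), of the oligoadenylate synthetase family that makes the second messenger for RNase L, were past the limit, the latter with an interval that includes 0 (-1.46 to 0.02), while *Oas2* (-0.29), *Oas3* (-0.26) and *Oasl1* (-0.36) were not. The sensors *Ifih1*, which encodes MDA5 for long double-stranded RNA, at 128 and 71.8 CPM (-0.83), and *Zbp1*, for left-handed nucleic acid, at 79.0 and 50.7 CPM (-0.64), were lower too. So were *Slfn5* (-1.19), *Ifi35* (-0.95) and *Parp14* (-0.66), which encodes an ADP-ribosyl transferase. *Irf7*, the factor that drives the interferon alpha genes, was just past the limit at 292 and 204 CPM (-0.52). *Stat2*, a subunit of ISGF3, was just short of it at 60.6 and 46.1 CPM (-0.40, interval -0.94 to 0.13).

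A set of abundant neutrophil genes differed little. *Slfn4* stood at 1150 and 958 CPM (-0.26), *Slfn1* at 526 and 465 CPM (-0.18), *Ifi27l2a* at 407 and 368 CPM (-0.15) and *Isg20*, which encodes an exonuclease of RNA, at 288 and 251 CPM (-0.20). *Rtp4* (-0.34), *Trim30a* (-0.37) and *Slfn8* (-0.33) lay between. The 12 genes tested and within the limit had a median UT level of 321 CPM, against 104 CPM for the 18 past it. The ISRE core occurred in 8 of those 18 promoter windows, in 6 of the 12 and in 2 of the 7 below the UMI minimum.

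**Figure D2:**
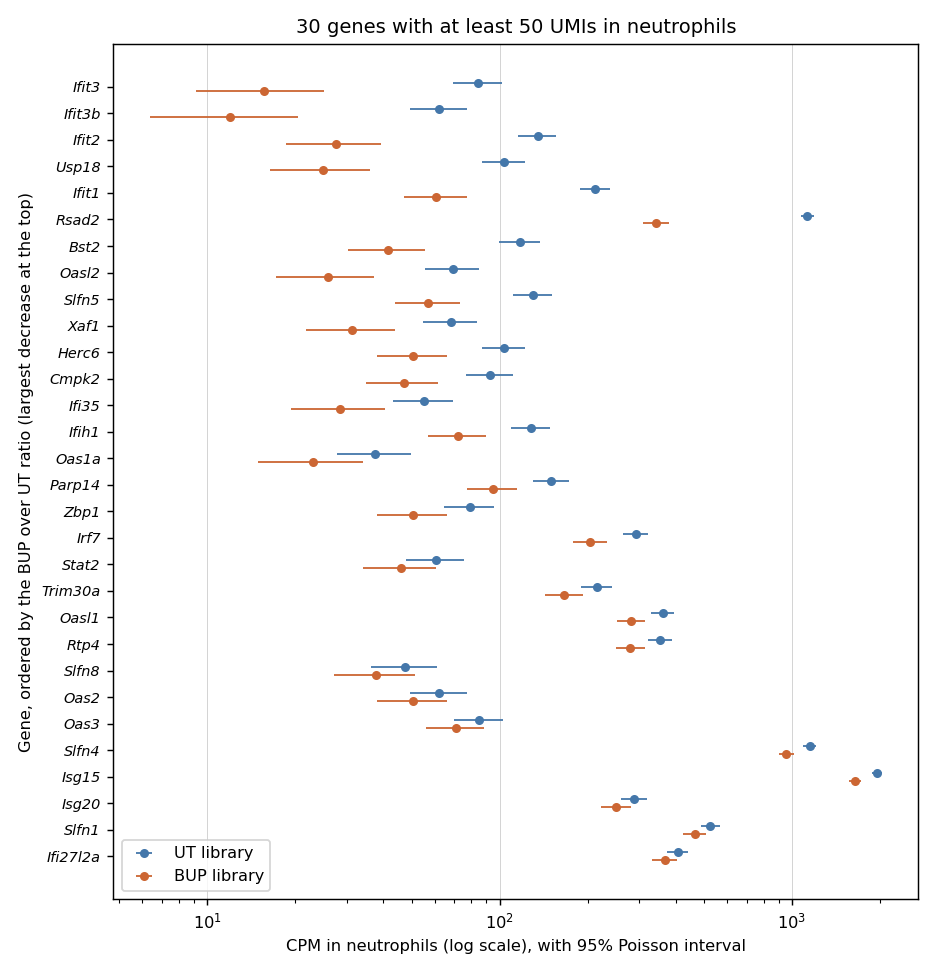
CPM of the 30 genes that reached 50 UMIs in neutrophils, on a logarithmic axis, with points for the UT (blue) and BUP (orange) library and bars for the 95% Poisson interval. The genes are ordered by ratio, from *Ifit3* (84.4 and 15.7 CPM) at the top, where the bars are far apart, to *Ifi27l2a* (407 and 368 CPM) at the bottom, where they overlap.

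Markers of the neutrophils themselves and of monocytes or macrophages were higher in the BUP library. In the neutrophils, the 8 neutrophil markers summed to 79446 CPM in UT and 113188 CPM in BUP, and the 12 markers of monocytes or macrophages to 3986 and 4491 CPM, all detected in both. The part of these shifts in the result was not tested. Without cells holding over 1% of UMIs from markers of another lineage, and without the 5 cells of each library richest in these genes, the summed log2 ratio in neutrophils was -0.55 and -0.56. A few cells weigh heavily on the rarer transcripts, since the top 5 cells held 32.4% of *Ifit2* UMIs in UT and 70.0% in BUP neutrophils, and 19.3% and 27.1% of those of *Rsad2*.

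Within the neutrophils the difference lay in the cells richest in these transcripts. To remove depth, each cell was thinned to 2000 UMIs, which left 273 UT and 227 BUP neutrophils and left out 342 and 198 shallower ones. The median neutrophil then had 8 UMIs of the 37 genes in both libraries. Cells with at least 20 such UMIs made up 26.7% of UT neutrophils (73 of 273, exact binomial interval 21.6% to 32.4%) and 15.9% of BUP neutrophils (36 of 227, 11.4% to 21.3%), and cells with at least 40 made up 13.2% and 4.85%. The level exceeded by the top 10% of cells was 46.6 UMIs in UT and 27.0 in BUP. The cut is a point in a continuous range, and 24 UT and 19 BUP neutrophils lay near it. Without thinning, the summed difference is the one given above.

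Single genes showed the same division. At equal depth, *Ifit1* was detected in 16.5% of UT (12.3% to 21.4%) and 7.05% of BUP neutrophils (4.08% to 11.2%), *Usp18* in 13.9% and 4.85%, *Ifit2* in 9.89% and 3.08% and *Rsad2* in 34.1% and 22.0%. *Isg15* was detected in 71.1% and 70.9% of these neutrophils and *Slfn4* in 63.7% (57.7% to 69.5%) and 68.3% (61.8% to 74.3%). As a measure of free RNA, *Slfn4* was detected in 1.26% of UT and 1.40% of BUP NK cells thinned to the same depth. The summed neutrophil markers, another such measure, were higher in BUP than in UT NK cells, as given below. *Ifit1*, *Ifit2*, *Usp18* and *Rsad2* were thus in fewer BUP neutrophils, while the shares for *Isg15* and *Slfn4* differed by less than their intervals.

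**Figure D3:**
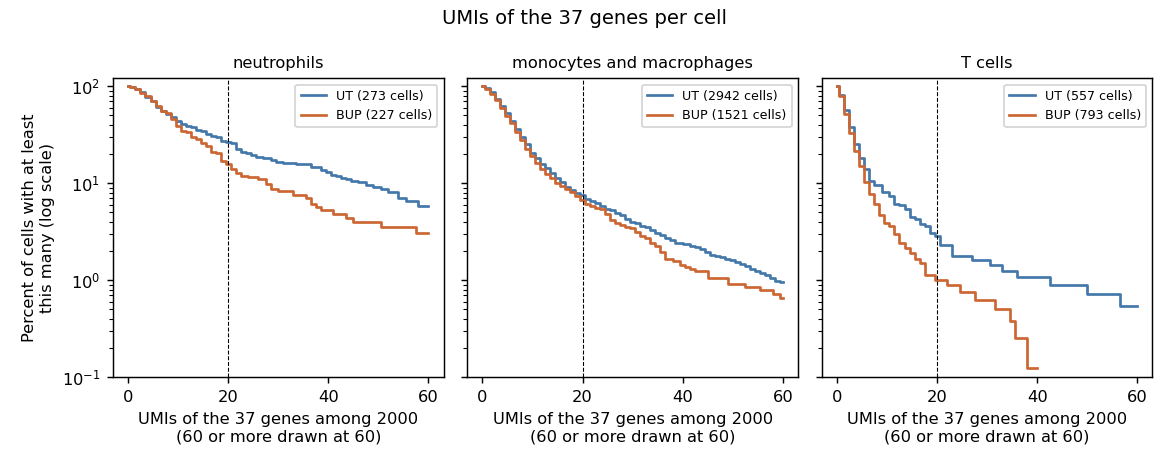
Percent of cells (logarithmic axis) with at least a given number of UMIs of the 37 genes among 2000 UMIs, for neutrophils, monocytes and macrophages, and T cells of the UT (blue) and BUP (orange) library; the dashed line marks 20 UMIs. In neutrophils the curves coincide up to the median of 8 UMIs and part above it, reaching 26.7% and 15.9% at the line.

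A cluster with neutrophil and macrophage markers together, of 163 UT and 128 BUP cells with 19836 and 30050 CPM of neutrophil markers, was kept out of both lineages. Its summed level was 6868 CPM in UT and 4120 CPM in BUP, a log2 ratio of -0.74 (-0.78 to -0.69), and 30 of 37 genes were lower by at least 0.5, against 9.13% of all genes in that cluster, with none higher (4.87%). *Rsad2* stood at 777 and 226 CPM, *Ifit1* at 125 and 34.1 CPM and *Isg15* at 903 and 719 CPM. The order of these 3 ratios was that of neutrophils, with *Isg15* the least different. Another mixed cluster, of T and myeloid markers (281 and 264 cells), summed to 3325 and 3155 CPM (-0.08), with 3 of 37 genes lower (6.50% of all) and none higher (3.29%).

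**Figure D4:**
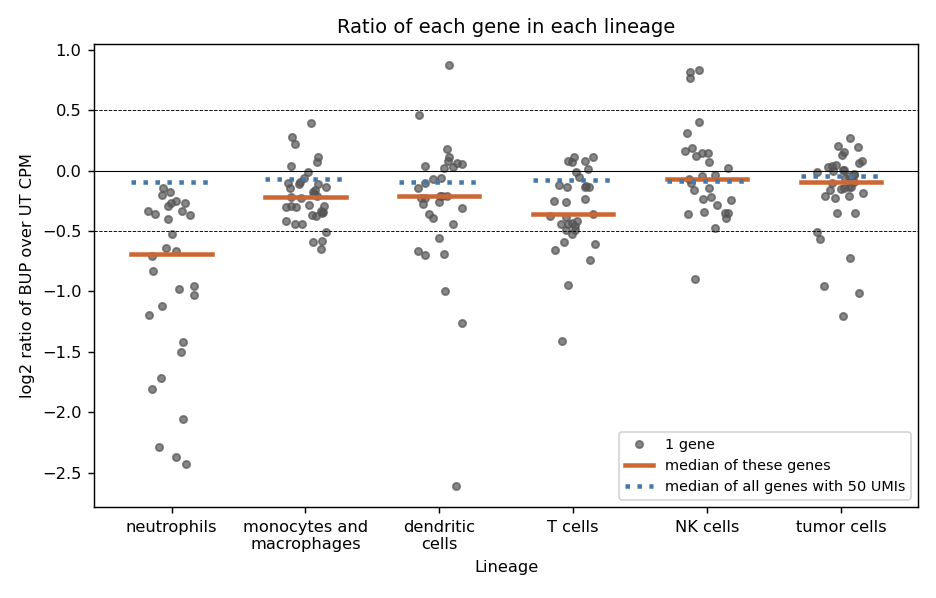
Log2 ratio of BUP over UT for each of the 37 genes with at least 50 UMIs in 6 lineages (1 point a gene), with the median of these genes (orange line) and of all genes (dotted blue line); dashed lines mark 0.5 in each direction. The medians are -0.69 in neutrophils, -0.36 in T cells and between -0.22 and -0.07 in the other lineages.

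In monocytes and macrophages the differences were small and mostly downward. The summed level was 3561 and 3389 CPM, with a log2 ratio of -0.07 (-0.09 to -0.06), and the median gene was at -0.22, against -0.07 for all genes. Of 37 genes, 31 were lower, but only 4 by at least 0.5, where 6.03% of all genes were lower and 5.47% higher by that amount; none of the 37 was higher by it. The 4 were *Dhx58*, which encodes the sensor LGP2, at 44.3 and 28.3 CPM (-0.65, interval -0.80 to -0.50), *Ifit3* at 33.7 and 22.4 CPM (-0.59), *Phf11d* at 37.4 and 24.98 CPM (-0.58) and *Ifit3b* (-0.50).

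The most abundant of these genes in macrophages went the other way. *Ifi27l2a*, a small interferon-induced membrane protein gene, stood at 502 CPM (495 to 510) in UT and 659 CPM (647 to 672) in BUP macrophages, a log2 ratio of 0.39 (0.36 to 0.43). *Ifih1* stood at 80.7 and 98.1 CPM (0.28) and *Isg15* at 285 and 308 CPM (0.11). *Bst2* stood at 332 and 297 CPM (-0.16), *Irf7* at 268 and 213 CPM (-0.33) and *Rsad2* at 155 and 149 CPM (-0.06). Abundant genes were thus on both sides of 0. In the same cells the neutrophil markers summed to 1307 and 2683 CPM and the T cell markers to 98.5 and 238 CPM, and their part in these values was not tested.

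The subsets of macrophages did not share 1 direction. In the cells led by *Cxcl3* and *Thbs1* (1381 UT and 841 BUP), the summed level was 4432 and 3826 CPM, with a log2 ratio of -0.21 (-0.23 to -0.19), and 6 of 37 genes were lower by at least 0.5 (5.25% of all genes) and none higher (3.23%). *Irf7* stood there at 382 and 254 CPM (-0.59) and *Phf11d* at 46.1 and 23.8 CPM (-0.95). In the cycling macrophages (317 and 140 cells) the sum was 3059 and 2499 CPM (-0.29), and 16 of 37 genes were lower past the limit (9.05% of all) and none higher (7.57%), among them *Ifit3* at 32.7 and 11.7 CPM and *Cmpk2* at 31.6 and 10.3 CPM. In the C1q macrophages (1130 and 487 cells) the sum was 3116 and 3148 CPM (0.01), with *Ifi27l2a* at 417 and 641 CPM (0.62) as the 1 gene higher past the limit (5.62% of all) and 4 lower (4.87% of all), *Ifit3b* at 8.98 and 2.75 CPM (-1.71) the lowest.

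Patrolling-type monocytes were higher in the BUP library. Their 225 UT and 100 BUP cells summed to 3622 and 4414 CPM, with a log2 ratio of 0.29 (0.21 to 0.36), with a median gene at 0.23; 5 of 30 genes were higher by at least 0.5 (6.74% of all genes) and none lower (8.80%). *Isg15* stood at 190 and 315 CPM (0.73), *Mx1* at 21.4 and 60.6 CPM (1.50) and *Rsad2* at 29.3 and 104 CPM (1.83). Without the 5 cells of each library richest in these genes the log2 ratio was 0.09 (0.01 to 0.17), with 1 gene higher and 4 lower, so that the 5 cells a library held most of the difference.

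**Figure D5:**
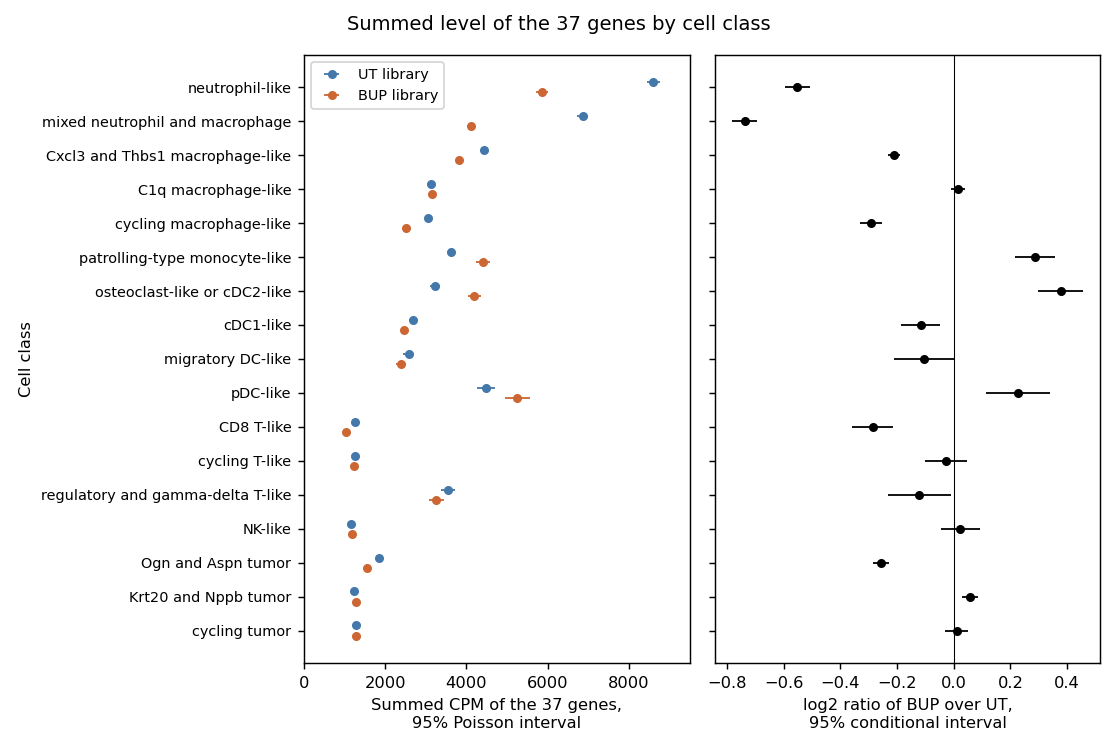
Summed CPM of the 37 genes in 17 cell classes of the UT (blue) and BUP (orange) library with 95% Poisson intervals (left), and the log2 ratio of BUP over UT with its 95% interval (right). The neutrophil-like class is highest in both libraries, the mixed neutrophil and macrophage class has the lowest ratio (-0.74), and 3 small classes, patrolling-type monocytes, pDC-like cells and osteoclast-like or cDC2-like cells, lie above 0.2.

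Dendritic cells, which present tumor antigen to T cells, held the highest level of *Stat2* in both libraries. Their sum was 2954 and 2704 CPM, with a log2 ratio of -0.13 (-0.18 to -0.08), and 7 of 32 genes were lower by at least 0.5 (12.0% of all genes) and 1 higher (3.86%). *Irf7* stood at 212 and 292 CPM (0.46, interval 0.29 to 0.64), *Bst2* at 649 and 526 CPM (-0.30) and *Isg15* at 249 and 256 CPM (0.04). These values also hold a change in the shares of the dendritic subsets described next, above all for *Bst2*. *Cmpk2* stood at 35.4 and 5.78 CPM (-2.61), *Parp14* at 66.9 and 41.4 CPM (-0.69), *Rsad2* at 82.4 and 56.0 CPM (-0.56), and *Isg20* at 16.0 and 29.4 CPM (0.88). The difference of *Rsad2* rested on few cells, as the top 5 held 81.2% of its UMIs in UT and 65.9% in BUP dendritic cells, and with cells thinned to 2000 UMIs *Rsad2* (0.26) and *Parp14* (0.19) turned upward.

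Among dendritic subsets, cDC1-like cells (68 and 87), which take up dead tumor cells, summed to 2672 and 2463 CPM (-0.12), with 11 of 28 genes lower (12.2% of all) and 3 higher (4.51%) by at least 0.5. *Rsad2* stood at 116 and 38.9 CPM (-1.58) in them, *Ifit3* at 40.2 and 13.6 CPM (-1.56) and *Irf7* at 221 and 337 CPM (0.61). Migratory DC-like cells (74 and 67) summed to 2572 and 2392 CPM (-0.10), with 4 of 16 genes lower (10.5% of all) and 1 higher (10.8%), *Oasl1* at 93.9 and 236 CPM. Plasmacytoid-like cells (pDC-like, 32 and 20), the type known for making interferon alpha, summed to 4481 and 5245 CPM (0.23, interval 0.11 to 0.34), with 3 of 7 genes higher (12.9% of all) and 1 lower (16.3%). Their level of *Bst2*, also a marker of these cells, was 2491 and 2558 CPM, far above that of all dendritic cells. They made up 32 of 174 UT and 20 of 174 BUP dendritic cells. The lower *Bst2* of all BUP dendritic cells therefore also holds this change in shares, and its part was not tested. The neutrophil markers in them summed to 1081 and 6968 CPM, and without cells holding RNA of another lineage the log2 ratio was 0.03 (-0.10 to 0.16). In 87 UT and 62 BUP cells with osteoclast-like or cDC2-like markers, *Ifi27l2a* stood at 351 and 1409 CPM and the sum, of 3230 and 4196 CPM, had a log2 ratio of 0.38, or 0.13 without the 5 richest cells of each library, with 2 of 26 genes higher by at least 0.5 (13.8% of all) and 8 lower (16.0%); the osteoclast-like markers summed to 1523 and 13455 CPM there, so the cells compared were not alike.

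T cells had lower values for most genes. Their sum was 1460 and 1235 CPM, with a log2 ratio of -0.24 (-0.29 to -0.19), the median gene was at -0.36, and 7 of 33 genes were lower by at least 0.5 (7.79% of all genes) and none higher (2.63%). *Isg15* stood at 109 and 80.7 CPM (-0.44, interval -0.62 to -0.26), and *Rtp4*, a chaperone of receptors, at 36.7 and 24.2 CPM (-0.60). *Slfn8* stood at 34.8 and 23.1 CPM (-0.59) and *Parp14* at 78.2 and 54.4 CPM (-0.52). The more abundant *Ifi27l2a* at 213 and 194 CPM (-0.14) and *Bst2* at 121 and 120 CPM (-0.01) differed little. Neutrophil markers in the T cells summed to 495 and 363 CPM and macrophage markers to 415 and 347 CPM, lower in the BUP library as were the interferon genes. *Slfn4*, a myeloid gene, stood at 12.5 and 4.71 CPM (-1.41). Without cells holding RNA of another lineage the summed log2 ratio in T cells was -0.22, with 6 of 32 genes lower by at least 0.5. The part of RNA from other cells was not tested further.

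The T cell classes differed in level more than in ratio. CD8 T-like cells (340 and 509) summed to 1254 and 1028 CPM (-0.29), with 8 of 23 genes lower past the limit (9.25% of all) and none higher (3.08%), among them *Slfn8* at 34.2 and 15.6 CPM (-1.13) and *Slfn1* at 47.9 and 27.5 CPM (-0.80). Schlafen genes are named for slowing the growth of T cells. Cycling T cells (168 and 271) summed to 1243 and 1220 CPM (-0.03), with 1 of 25 genes lower (7.52%) and 2 higher (4.90%). The small class with markers of regulatory and gamma-delta T cells (116 and 87) summed to 3549 and 3261 CPM (-0.12), the highest of the T cell classes, with 7 of 18 genes lower (15.2% of all), *Isg15* at 393 and 254 CPM (-0.63) among them, and 3 higher (7.22%). This highest class made up 116 of 624 UT and 87 of 867 BUP T cells. The values for all T cells therefore also hold a change in the shares of the classes, and its part was not tested.

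NK cells and tumor cells gave sums without a difference past counting error. In NK cells the sum was 1164 and 1183 CPM, with a log2 ratio of 0.02 (-0.05 to 0.09), with 1 of 29 genes lower by at least 0.5 (9.09% of all genes), *Mx1* (-0.90), and 3 higher (2.69%). The most abundant were *Bst2* at 124 and 135 CPM (0.12), *Isg15* at 85.3 and 113 CPM (0.40) and *Irf7* at 89.0 and 86.3 CPM (-0.04). *Parp14* stood at 58.4 and 44.6 CPM (-0.39). The higher genes were low in level, as *Isg20* stood at 39.7 and 70.6 CPM (0.83), *Slfn4* at 12.2 and 21.5 CPM (0.82) and *Rsad2* at 17.0 and 28.9 CPM (0.77). The neutrophil markers summed to 371 CPM in UT and 1352 CPM in BUP NK cells. Without cells holding RNA of another lineage, *Isg20* stayed at 0.76, while *Rsad2* went to -0.03, *Slfn4* to -1.54 and *Isg15* from 0.40 to 0.05.

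In tumor cells the sum was 1400 and 1398 CPM, with a log2 ratio of -0.00 (-0.02 to 0.02), with 6 of 37 genes lower by at least 0.5 (7.15% of all genes) and none higher (3.89%). *Bst2* made up the largest part, with 436 and 455 CPM (0.06). *Ifi27l2a* stood at 155 and 188 CPM (0.27) and *Isg15* at 103 and 88.0 CPM (-0.22). The genes lower past the limit were low in level, as *Rsad2* at 16.1 and 8.32 CPM (-0.96), *Ifi44* (-0.51), *Slfn1* at 5.56 and 2.75 CPM (-1.01), *Slfn4* (-0.72), *Slfn5* (-1.21) and *Oas3* (-0.56). The top 5 cells held 45.9% of *Rsad2* UMIs in UT and 39.9% in BUP tumor cells.

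One tumor class stood apart from the sum. The cells led by *Ogn* and *Aspn*, genes of matrix proteoglycans (508 UT and 1512 BUP cells), summed to 1843 and 1542 CPM, with a log2 ratio of -0.26 (-0.29 to -0.23), with 35 of 37 genes lower, 14 by at least 0.5 (6.36% of all) and none higher by it (1.92%). *Ifit1* stood at 28.5 and 16.9 CPM (-0.75), *Ifi44* at 31.4 and 17.2 CPM (-0.87) and *Rsad2* at 33.6 and 10.5 CPM (-1.67). The neutrophil markers in these cells summed to 516 and 215 CPM and the macrophage markers to 677 and 424 CPM. Without the cells holding over 1% of such RNA the ratio was again -0.26 and 14 genes were lower. That step left out only 7 UT and 6 BUP cells and cannot remove RNA spread thinly over all cells. The part of such RNA was not tested. The cells led by *Krt20* and *Nppb* (444 and 682) summed to 1228 and 1279 CPM (0.06), with 4 of 37 genes lower past the limit (4.53% of all) and 2 higher (2.01%). The cycling tumor cells (177 and 240) summed to 1270 and 1279 CPM (0.01), with 2 of 31 lower (4.52%) and none higher (4.20%). The *Ogn* and *Aspn* class, highest in level in both libraries, made up 508 of 1129 UT and 1512 of 2434 BUP tumor cells. The sum over all tumor cells therefore also holds this change in shares, and its part was not tested.

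Few genes behaved alike across the lineages. Of 23 genes with at least 50 UMIs in all 6 lineages, 7 were lower in the BUP library in each of them, as were 14.2% of the 3378 genes with that many UMIs in all 6; the 23 were chosen with these contrasts in view, so nothing is read from this. *Ifit3*, *Rsad2* and *Parp14* were lower by at least 0.5 in at least 3 lineages. *Rsad2* (NK cells), *Isg20* (dendritic and NK cells) and *Slfn4* (NK cells) were higher by that amount somewhere, and 9 genes were past it in no lineage. Summed over all kept cells, whatever their type, the genes stood at 2663 and 2021 CPM (-0.40), a value that also holds the change in the shares of the cell types. Of 7163 UT and 6776 BUP cells, 3053 and 1568 were monocytes and macrophages, 1129 and 2434 tumor cells and 615 and 425 neutrophils. Monocytes and macrophages held 120885 UT and 57913 BUP UMIs of the 37 genes, and neutrophils 11207 and 6365. The part of each type was not tested.

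The ligands were nearly out of reach at this depth. *Ifnb1*, the gene of interferon beta, had 47 UMIs in 28 of 3053 UT macrophages (1.38 CPM, 1.02 to 1.84) and 65 UMIs in 33 of 1568 BUP macrophages (3.80 CPM, 2.94 to 4.85). It had 9 UMIs in dendritic cells of each library. None was found in neutrophils, where the intervals reach up to 2.83 CPM in UT and 3.40 CPM in BUP, or in NK cells. Of the 20 type I and III ligand genes listed, *Ifnb1* in macrophages was the one with enough UMIs to compare. *Ifng*, of interferon gamma, stood at 267 and 248 CPM in T cells, at 37.7 and 40.9 CPM in NK cells and at 5.45 and 13.0 CPM in macrophages. *Ifnb1* and *Ifng* were thus both higher in BUP than in UT macrophages beyond counting error, from few cells, the markers of T cells being higher there too.

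Of 6 interferon receptor genes, among them *Ifnar1* and *Ifnar2*, 5 had enough UMIs in neutrophils and 5 in macrophages, and none was past 0.5 in either lineage. The same held for the 5 measured in dendritic cells, the 4 in NK cells and the 5 in tumor cells, while in T cells 1 of 5 was lower past the limit, where 7.79% of all genes were. It was *Ifngr2*, a chain of the interferon gamma receptor, at 12.7 and 4.41 CPM (-1.53). Of the 7 genes of signal transduction, 6 had enough UMIs in neutrophils and 1 was lower past the limit there (17.5% of all genes). It was *Socs1*, an inhibitor of the kinases that interferons induce, at 122 and 79.2 CPM (-0.62). *Irf9*, the DNA-binding subunit of ISGF3, stood at 86.7 and 87.5 CPM (0.01).

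Other interferon genes gave a wider view of the pathway. Of 34 further type I response genes, 16 had enough UMIs in neutrophils, 7 of these were lower by at least 0.5 (17.5% of all genes) and none higher (3.81%), with a median of -0.45. *Parp12* stood at 31.4 and 8.29 CPM (-1.92) and *Sp100*, of nuclear bodies, at 220 and 143 CPM (-0.62), while *Slfn2* stood at 762 and 832 CPM (0.13). Of 20 genes known for their response to interferon gamma, 15 had enough UMIs in neutrophils, 8 were lower (17.5% of all) and none higher (3.81%), with a median of -0.57. *Gbp5*, a guanylate-binding protein gene, stood at 124 and 32.2 CPM (-1.95), the chemokine gene *Cxcl10* at 328 and 119 CPM (-1.47), and *Irf1* at 600 and 652 CPM (0.12). Many genes of both lists answer to either kind of interferon. Of 13 genes that sense nucleic acid or induce interferon, 4 had enough UMIs in neutrophils and none was past the limit. In the other lineages none of them was higher by it, and those lower were 1 of 13 in macrophages (6.03% of all genes), 3 of 11 in dendritic cells (12.0%), none of 10 in T cells (7.79%), 2 of 10 in NK cells (9.09%) and 2 of 12 in tumor cells (7.15%).

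In macrophages the gamma list was lower in 7 of 20 genes and the further type I list in 2 of 33 (6.03% of all genes), with none higher in either (5.47%). *Cxcl9*, a chemokine gene that draws T cells, stood at 252 and 169 CPM (-0.57), *Gbp2* at 307 and 202 CPM (-0.61) and *Cxcl10* at 340 and 243 CPM (-0.48). In dendritic cells the counts were 7 of 20 and 4 of 29 lower, where 12.0% of all genes were. In T cells they were 5 of 19 and 4 of 27 (7.79% of all), in NK cells 2 of 18 and 2 of 21 (9.09%) and in tumor cells 2 of 20 and 2 of 31 (7.15%). The 1 gene of these lists higher past the limit was in the gamma list of tumor cells, where 3.89% of all genes were higher.

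The genes whose level followed the summed level of the 37 most closely were sought among 11626 genes over 12 points, the 6 lineages in both libraries. The nearest were *Zfp36* (Pearson's r of 0.989), *Cpeb2* (0.989), *Acsl1* (0.986), *Nampt* (0.983), *Slc7a11* (0.982), *Pfkfb4* (0.980), *Samhd1* (0.979), *Mcl1* (0.979), *Gm37168* (0.978) and *E230013L22Rik* (0.977), all highest in neutrophils. *Zfp36*, which encodes a protein that destabilizes RNA, stood at 7394 and 5483 CPM in UT and BUP neutrophils and at 1876 and 1856 CPM in macrophages. The 12 points share their libraries and come in pairs of 1 lineage, so the values describe which lineage holds a gene and no p-value is given.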

How the data were processed

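The authors made the 10x 5′ libraries into gene counts with Cell Ranger on GRCm39; the submitters' processing notes name Cell Ranger 8.0.1 and Seurat 5.0.1. The deposited values are UMI counts for each gene and barcode, not normalized. Cells were barcodes above 100 UMIs whose mitochondrial share was below 20%. Cells of both libraries were clustered together in Seurat 5.3.0 (2000 variable genes without the interferon genes, 20 principal components, resolution 0.5), and named from markers; the naming thresholds were set with the clusters in view, and doublets were not removed. Counts were summed for each library and class, divided by the class total and given as CPM, the counts for every 1000000 UMIs. Levels carry exact Poisson, shares exact binomial (Clopper-Pearson) and ratios exact conditional 95% intervals. A gene was compared from 50 UMIs upward, summed over the libraries, and described as past the limit at a log2 ratio of 0.5 or more in either direction. The genes named in each lineage were the most abundant ones and those with the largest ratios among genes with at least 200 UMIs, with others where a sentence describes a group of them; these last, and those in the cell classes, were chosen after their values were seen. The members and lists were chosen with earlier results of these data known. No p-value was computed, since each group is 1 library. One gene of the signal transduction list is not reported here by name. Starts and promoter bases came from the GENCODE annotation of GRCm39. The ratio step was tested on simulated data. Python 3.11.15, numpy 2.4.6, scipy 1.17.1, pandas 2.3.3, matplotlib 3.10.9 and scanpy 1.11.5 (Scrublet) were used.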

Additional observations from a re-analysis of the deposited data

Results flagged for a closer look

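The summed level of the 37 genes had a log2 ratio of BUP over UT of -0.55 in neutrophils, and several cell classes had a ratio of the opposite sign. It was 0.29 in patrolling-type monocyte-like cells, 0.23 in pDC-like cells, 0.38 in osteoclast-like or cDC2-like cells and 0.058 in the tumor cells led by *Krt20* and *Nppb*, each with an interval above 0. In C1q macrophage-like cells (0.01), NK-like cells (0.02) and cycling tumor cells (0.01) it was above 0 with an interval that includes 0. In B-like (1.20), mast-like (1.02) and erythroid-like cells (0.24), with at most 3 of the 37 genes at 50 UMIs, it was above 0 too. These differences between classes were not tested, as each class has 1 library in each group. Several moved with processing. Without cells holding RNA of another lineage, the ratio in pDC-like cells was 0.03 (-0.10 to 0.16). It was 0.29 in patrolling-type, 0.28 in osteoclast-like or cDC2-like and 0.052 in *Krt20* and *Nppb* tumor cells. Without the cells richest in these genes, the patrolling-type and the osteoclast-like or cDC2-like ratios were smaller, as given above. With cells thinned to equal depth, the *Krt20* and *Nppb* tumor ratio changed sign.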

How the results depend on the processing

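Each class rests on 1 library in each group, so the settings below show only how values move with processing. No paired analysis was possible because each condition has 1 library. Settings on cells with RNA of another lineage, on the mixed cluster, on the 5 richest cells and on 1000 UMIs were chosen after seeing the data, and the cause of each shift was not tested. In neutrophils the summed log2 ratio stayed below 0 in every setting, at -0.66 with the interferon genes kept for clustering, -0.50 with median-ratio scaling and -0.68 with the mixed cluster added, and 18 lower genes became 7 with a minimum of 200 UMIs, under which fewer genes were tested. The other sums were smaller, and each moved by more than its counting error in some settings and by less in others. With the interferon genes kept they were -0.049 in macrophages and -0.066 in NK cells, and 12 T cell genes and 4 NK cell genes were lower and 1 NK cell gene higher. With median-ratio scaling, which shifts all genes of a lineage together, sums were -0.0072 in macrophages, -0.038 in dendritic cells, -0.16 in T cells and 0.049 in tumor cells, 2 dendritic cell genes were higher, and the NK cell median became 0.00067. With cells thinned to 2000 UMIs, sums were -0.14 in macrophages, -0.21 in dendritic cells, -0.46 in T cells, -0.11 in NK cells and -0.036 in tumor cells, with 1 dendritic cell gene and 11 T cell genes lower and 0 NK cell genes lower or higher; *Parp14* (0.19) and *Rsad2* (0.26) in dendritic cells, cDC1-like cells (0.016) and *Krt20* and *Nppb* tumor cells (-0.0096) changed sign. With 30 principal components, sums were -0.048 in dendritic cells (4 lower, 2 higher) and -0.29 in T cells (13 lower). Without the highest doublet scores, they were -0.021 in dendritic cells (3 higher) and 0.037 in tumor cells (3 lower), with 3 NK cell genes lower and 1 higher. With a resolution of 1.0, T cells were at -0.33 (14 lower) and NK cells at 0.18, with 7 genes higher, 0 lower and a median of 0.14. A stricter cell filter left 2 NK cell genes lower. The minimum of 200 UMIs left 2 dendritic cell genes lower and 0 higher, 3 T cell genes lower, and 0 NK cell genes lower and 1 higher. Without cells holding RNA of another lineage, 2 macrophage genes were lower, dendritic cells were at -0.24 and NK cells at -0.064 (4 lower, 1 higher). Without the 5 richest cells, sums were -0.10 in macrophages, -0.10 in NK cells (2 lower, 0 higher) and 0.016 in tumor cells, 2 dendritic cell genes were lower and 2 higher, 11 T cell genes were lower, and cDC1-like cells (0.052) and regulatory and gamma-delta T-like cells (0.022) changed sign. Cells with at least 10 UMIs of the 37 genes, in UT and BUP, were 43.6% and 38.8% of neutrophils, 20.7% and 19.2% of macrophages, 19.6% and 19.0% of dendritic cells, 8.08% and 3.91% of T cells, 6.03% and 5.59% of NK cells and 4.81% and 4.14% of tumor cells; with at least 40 they were 13.2% and 4.85%, 2.35% and 1.45%, 0% and 0%, 0.898% and 0.126%, 0% and 0%, and 0.0908% and 0.0829%. The share in neutrophils was 24.0% and 15.9% with 1000 UMIs and a limit of 10.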

Other observations

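Erythroid-like cells, a class of 128 UT and 114 BUP cells with medians of 1018 and 1116 UMIs, held *Rsad2* at 752 and 893 CPM and *Isg20* at 661 and 913 CPM, against 1127 and 344 CPM and 288 and 251 CPM in neutrophils. *Rsad2* was detected in 39.8% of these cells in UT and 44.7% in BUP. With 3 of the 37 genes at 50 UMIs or more, the class is not compared further.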
